A study of Mus musculus with 8 samples.

Results

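The 33 genes described here carry a fatty acid from the blood to the electron transport chain of the heart. They were listed by name for their place in the pathway, with no threshold on their measured values, and cover uptake and binding, activation, the carnitine shuttle, its control by malonyl-CoA, the turns of beta-oxidation, electron transfer, and the thioesterases and uncoupling proteins beside it. All 33 were found among the 50599 records of each library, and all 33 are among the 19959 genes that received an adjusted p. The libraries hold total RNA of hearts from 12-week-old male C57BL/6N mice, 4 labelled wildtype and 4 labelled Lrpprc knockout, with 1 heart in each. Both groups carried Lrpprc loxP/loxP alleles, and only the knockout animals also carried Cre in heart and skeletal muscle. Mice that lack Lrpprc in the whole body die as embryos, which is why the loss was limited to muscle. The driver of Cre was not given in the sources used here. Lrpprc encodes a protein that binds mitochondrial RNA, and the comparison asks how the fatty acid genes, all of them nuclear, stood in hearts that lacked it.

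A fatty acid freed from triglyceride by lipoprotein lipase in the capillary crosses the cell membrane, is bound in the cytosol and is joined to coenzyme A. The carnitine shuttle moves the long-chain product into the mitochondrion, and malonyl-CoA holds back its first enzyme. Each turn of beta-oxidation then runs through a dehydrogenase, a hydratase, another dehydrogenase and a thiolase. The adult heart draws most of its energy from this route, and nuclear receptors of the PPAR and estrogen-related families are known to control many of its genes.

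The knockout hearts had lower RNA of many enzymes of mitochondrial fatty acid oxidation, while 2 genes of the pathway were higher. Of the 33 genes, 16 were lower, 2 were higher and 15 were not called (DESeq2 on the expected counts with effective lengths, an adjusted p below 0.05 over all genes tested). Over all genes tested, 15.5% were called lower and 18.2% higher, and among the 4777 genes whose normalised counts averaged 500 or more, where most of the 33 lie, the shares were 22.8% and 31.1%. The median log2 fold change, knockout over wildtype, was -0.47 over the 33 genes and 0.01 over all genes tested. By edgeR 16 were lower and 1 higher, against 19.6% and 20.1% of the genes it tested. The falls of at least 2-fold were those of Acaa2, Cpt2 and Lpl, and the rise of that size was that of Acot2. Such falls and rises made up 5.49% and 6.86% of all genes tested. In 12 of the 33 genes every knockout library lay below every wildtype library, and in 1, Acot2, every one lay above, against 16.4% and 16.7% of all genes tested.

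One library, knockout replicate 3, stood apart from the other knockout libraries in these genes and has to be known before the single results. It held the highest knockout value in 30 of the 33 genes, the lowest in 1, Fabp4, and an inner value in Slc22a5 and Cpt2. It was the highest of the 4 knockout libraries in 33.8% of all genes tested and in 52.4% of those averaging 500 or more. Its normalised count over the mean of the other knockout libraries had a median of 1.62 over the 33 genes, from 0.795 to 3.35, against 1.10 over the genes averaging 500 or more. It lay above all wildtype libraries in 14 of the 33 genes, against 35.5% of all genes tested. In 13 of the 33 it lay below all of them and in 6 inside their range. The normalised count of Lrpprc was 605 in this library, 597, 504 and 601 in the other knockout libraries and 3424 to 3946 in the wildtype libraries. The targeted gene was as low there as in the rest of its group, with a log2 fold change between genotypes of -2.67 ± 0.10 (SE, adjusted p = 3.77e-153).

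**Figure D1:**
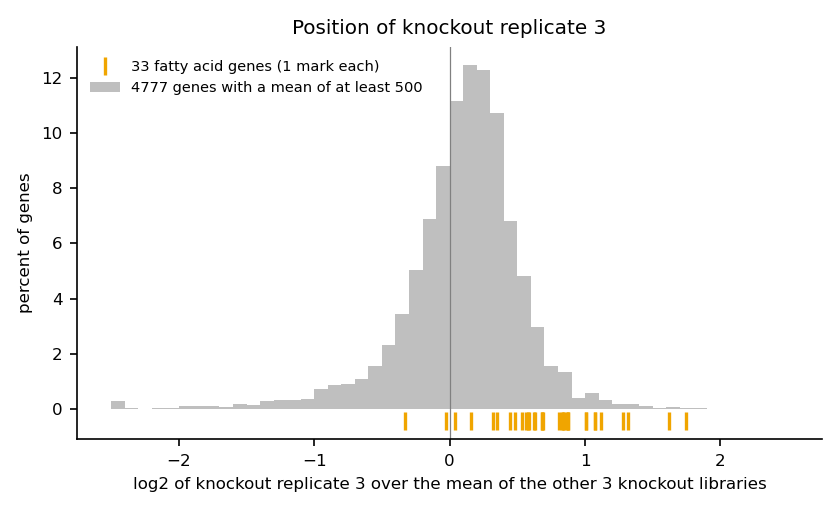
Grey bars give the percent of the 4777 genes averaging 500 or more normalised counts (vertical axis) by the log2 of knockout replicate 3 over the mean of the other 3 knockout libraries (horizontal axis), and orange marks below them give the 33 fatty acid genes. Most marks lie to the right of 0, with a median ratio of 1.62.

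Without knockout replicate 3, 24 of the 33 genes were lower, 1 was higher and 8 were not called, against 17.2% called lower and 19.4% called higher over all genes tested in that fit. All 16 genes called lower with every library were again among the 24. The 8 added were Cd36, Mlycd, Acadvl, Hadha, Hadhb, Decr1, Acot13 and Ucp3, and Cpt1a was no longer called. In 24 genes the other 3 knockout libraries all lay below all wildtype libraries, which held for 20.5% of all genes tested. The median log2 fold change of the 33 genes was -0.65 in this fit. Called falls of at least 2-fold were 7 here (Lpl, Acsl1, Cpt2, Hadh, Acaa2, Eci1 and Ucp3) and rises of that size 0. The share of all genes with such changes was not counted in this fit. The median standard error of the 33 genes was 0.0974 in place of 0.193. Knockout replicate 3 was singled out by its high values in these same genes. Lower fold changes and smaller standard errors without it therefore follow in part from that choice. Leaving out knockout replicate 1, 2 or 4 instead gave 13 lower each, and 4, 2 and 1 higher. The fold changes of the 33 genes below are given with and without knockout replicate 3 as a description, and values per library follow the order of replicates 1 to 4.

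**Figure D2:**
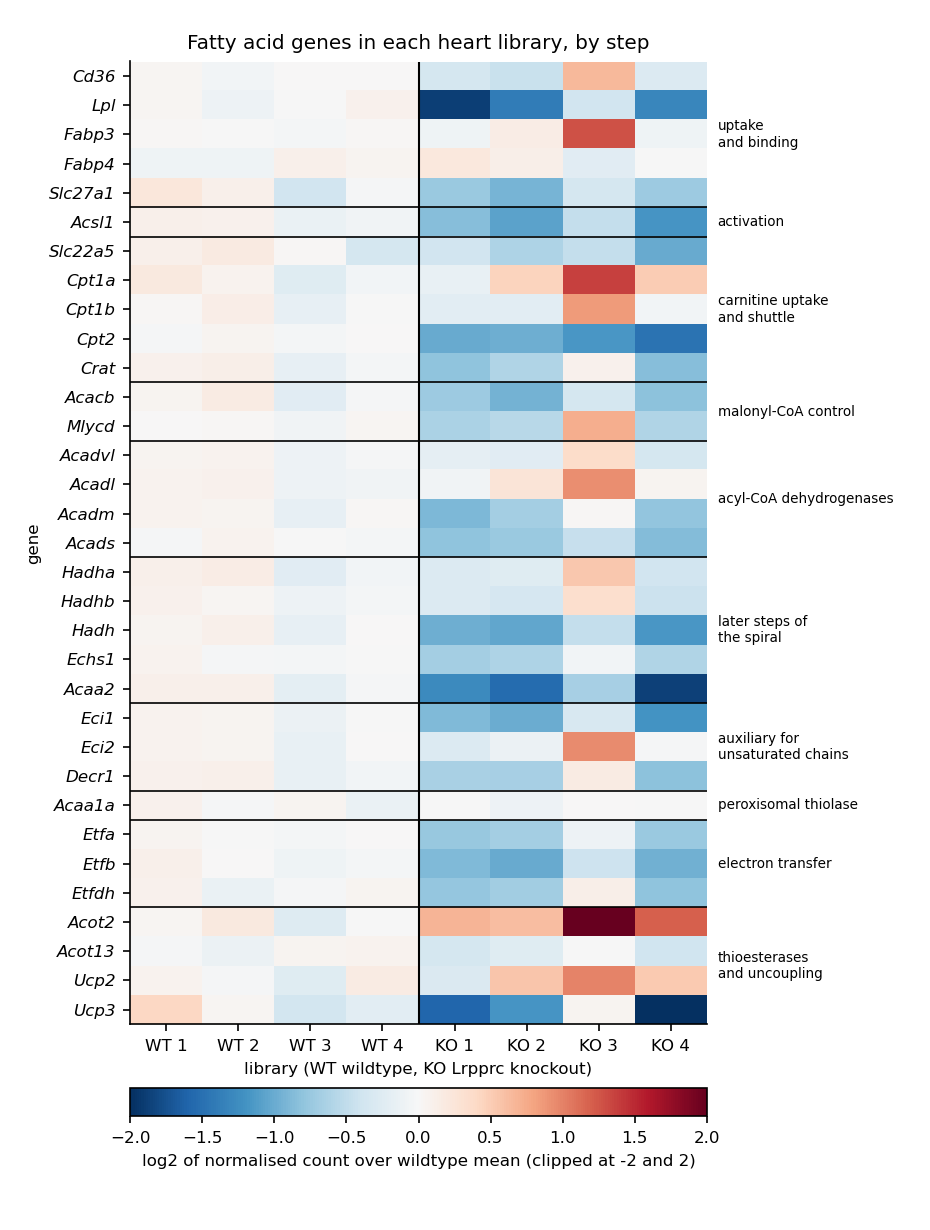
Colour gives the log2 of each library's normalised count over the wildtype mean (clipped at -2 and 2) for the 33 genes in rows, grouped by step, and the 8 libraries in columns. Knockout replicates 1, 2 and 4 are blue in most rows, with Acot2 red, while knockout replicate 3 is paler or red in most.

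The scale on which the genes are compared bears on the counts of calls. Mitochondrial rRNA took 44.0% to 46.9% of the counts of the wildtype libraries and 65.6% to 67.8% of those of the knockout libraries, at depths of 35218541 to 47743376 expected counts. With each library scaled to its total count, 22 of the 33 genes were lower and 1 higher, and with the total outside mitochondrial rRNA 8 were lower and 10 higher. These scalings moved the median log2 fold change of all genes tested by -0.29 and 0.43, so all directions below are relative to the bulk of genes, and none of the 18 called genes changed sign under either. With the total outside mitochondrial rRNA the calls of Slc27a1, Slc22a5, Crat, Acacb, Acadm, Echs1, Etfa and Etfdh ended (log2 fold changes of -0.28 to -0.05), and those of Lpl, Acsl1, Cpt2, Acads, Hadh, Acaa2, Eci1 and Etfb held. The 10 called higher on that scale were Fabp3, Fabp4, Cpt1a, Cpt1b, Acadvl, Acadl, Eci2, Acaa1a, Acot2 and Ucp2 (log2 fold changes of 0.34 to 1.91). Among the genes not called with the main scaling, Cd36, Mlycd, Acadvl, Hadha, Hadhb, Acaa1a and Acot13 had a positive fold change with the total outside mitochondrial rRNA, and Fabp4, Cpt1b and Eci2 a negative one with the total count. Cardiomyocyte markers also moved with genotype, with 6 of 7 lower and summed normalised counts of 1022330 to 1122800 in the wildtype and 477624 to 615149 in the knockout libraries, the highest of them in knockout replicate 3, and no marker at 0. Macrophage markers were higher in 4 of 5 cases and fibroblast markers in 2 of 5, their sums lying at 2083 to 2493 and 11225 to 11597 in the wildtype and at 2645 to 5531 and 12393 to 21966 in the knockout libraries. Of 5 atrial markers Myl7 and Sln were lower and Nppa higher, and knockout replicate 3 was the lowest knockout library in 4 of the 5. It held 463 normalised counts of Myl4, an atrial myosin light chain, against 2084 to 3415 in the other knockout and 3730 to 4917 in the wildtype libraries, and 70.1 of Myl7, another, against 319 to 639 and 3287 to 4555. Of 3 brown adipocyte markers 1, Cidea, was higher, with sums of 305 to 447 in the wildtype and 667 to 861 in the knockout libraries. Cidea alone held 259 to 272 and 369 to 822 of these. Dio2 was not called (log2 fold change of 1.57). Ucp1 was not called either, at 8.03 to 54.7 in the wildtype and 36.9, 0, 0 and 0 in the knockout. Of 4 liver markers 2 were tested and 1, Ttr, was higher. The sums over all 4 were 2.72 to 8.83 in the wildtype and 3.76 to 17.1 in the knockout libraries. The part of these shifts in the results was not tested, and in RNA of whole hearts fewer cells of a type and less RNA per cell cannot be told apart.

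The start regions of the genes were searched for the binding letters of the nuclear receptors named above, since many of the genes fell together. RefSeq windows of 250 bases before to 50 after the start (GRCm38.p6) matched 26 of the 33 genes. Neither the direct repeat of AGGTCA spaced by 1 base, bound by PPAR with RXR, nor TCAAGGTCA, the element of estrogen-related receptors, occurred on either strand of any of the 26. They occurred in 0.0481% and 0.466% of all 27025 genes with such windows, too rarely for their absence from 26 genes to tell anything. The shared half-site AGGTCA, which lies within both longer motifs, occurred on either strand in 7 of the 26, which is 26.9%, against 18.1% of all 27025 genes. These were Cd36, Cpt1a, Acacb, Acadvl, Acadm, Echs1 and Ucp3. The RefSeq start lay 967 bases inside the GENCODE span of Cpt1a given below with its values, 18983 inside that of Acacb and 52905 inside that of Cd36. A stretch before the RefSeq start is printed for 4 of them whose results differed, 5′ to 3′ on the strand of the gene, with the half-site or its reverse complement in capitals.
Echs1, chr7:140116479-140116549, minus strand: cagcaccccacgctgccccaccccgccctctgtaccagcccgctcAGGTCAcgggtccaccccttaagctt
Cpt1a, chr19:3323162-3323232, plus strand: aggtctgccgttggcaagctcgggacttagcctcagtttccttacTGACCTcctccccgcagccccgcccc
Acadvl, chr11:70015490-70015560, minus strand: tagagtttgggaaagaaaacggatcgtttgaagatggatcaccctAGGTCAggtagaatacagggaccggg
Ucp3, chr7:100472902-100472972, plus strand: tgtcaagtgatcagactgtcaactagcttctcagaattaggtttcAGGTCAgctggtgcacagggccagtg
The half-site thus stood before the RefSeq start of a gene called lower (Echs1), a gene called higher (Cpt1a) and 2 genes not called with all libraries (Acadvl and Ucp3). A match of these letters is a description of the window only.

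Of the 5 genes of uptake and binding, Lpl and Slc27a1 were lower with all libraries, and Cd36 was the third without knockout replicate 3. Lpl (ENSMUSG00000015568.16, chr8:68880491-68907448, plus strand, GRCm38 as all coordinates here) encodes lipoprotein lipase, which frees fatty acids from circulating triglyceride. Its normalised count was 57409, 51957, 55568 and 59140.3 in the wildtype and 15135, 21284, 42789 and 22712 in the knockout. Every knockout library lay below every wildtype one, with knockout replicate 3 nearest to them. Lpl had a log2 fold change of -1.14 ± 0.26 (SE, adjusted p = 6.82e-05) with all libraries and -1.51 ± 0.13 (SE, adjusted p = 5.67e-29) without knockout replicate 3. The fall was 2.20-fold. Slc27a1, a fatty acid transport protein of the membrane, was also lower, with a log2 fold change of -0.67 ± 0.17 (SE, adjusted p = 0.000411), and at -0.80 without knockout replicate 3.

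Cd36 (ENSMUSG00000002944.15, chr5:17781690-17888801, minus strand) encodes the main membrane receptor for long-chain fatty acids in muscle. It was counted at 25695, 23896, 24998 and 25005 in the wildtype and 19601, 18221, 39021 and 20564 in the knockout. Knockout replicates 1, 2 and 4 lay below every wildtype library and knockout replicate 3 above every one. Its log2 fold change was -0.03 ± 0.22 (SE, adjusted p = 0.934) with all libraries and -0.36 ± 0.07 (SE, adjusted p = 8.49e-06) without that library. Fabp3 (ENSMUSG00000028773.8, chr4:130308595-130315463, plus strand), the binding protein of heart muscle cells, stood at 35086, 34560.2, 33695 and 35002 in the wildtype and 32621, 38365, 83582 and 32424 in the knockout. Knockout replicates 1 and 4 lay just below the wildtype range, knockout replicate 2 above it and knockout replicate 3 far above it, and the log2 fold change was 0.43 ± 0.27 (SE, adjusted p = 0.216) with it and -0.01 ± 0.08 (SE, adjusted p = 0.965) without it. Fabp4 (ENSMUSG00000062515.3, chr3:10204088-10208576, minus strand), the binding protein of fat cells and capillary endothelium, stood at 3975, 3980.2, 4561 and 4402 in the wildtype and 4885, 4609.8, 3629.6 and 4198 in the knockout. Here knockout replicate 3 was the lowest of all 8 libraries, the groups otherwise overlapped, and the log2 fold changes were 0.03 ± 0.12 (SE, adjusted p = 0.862) and 0.11 ± 0.09 (SE, adjusted p = 0.392). In the same library the summed normalised counts of 6 endothelial markers (10327 against 12107 to 18053 in the other knockout libraries) and of 5 tested adipocyte markers (22.7 against 59.2 to 180) were the lowest of the knockout group, and their part was not tested.

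The gene of activation was lower. Acsl1 (ENSMUSG00000018796.13, chr8:46471037-46536051, plus strand), the long-chain acyl-CoA synthetase that prevails in heart, was counted at 17671, 17365, 14892 and 15644 in the wildtype and 9053, 7784, 11831 and 7233 in the knockout. The groups did not overlap, and the log2 fold change was -0.87 ± 0.16 (SE, adjusted p = 6.1e-07), a fall of 1.83-fold, and -1.03 ± 0.11 (SE, adjusted p = 4.62e-21) without knockout replicate 3.

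Of the 5 genes of carnitine uptake and the shuttle, 3 were lower and 1 higher with all libraries, and 3 were lower and 0 higher without knockout replicate 3. Cpt2 (ENSMUSG00000028607.16, chr4:107903981-107923610, minus strand), the carnitine palmitoyltransferase of the inner membrane, stood at 2940.2, 3100.0, 2911 and 2994 in the wildtype and 1491, 1521, 1337 and 1075 in the knockout. The groups did not overlap, and knockout replicate 3 lay among the other knockout libraries. Cpt2 had a log2 fold change of -1.14 ± 0.12 (SE, adjusted p = 1.53e-18) and -1.14 ± 0.12 (SE, adjusted p = 1.6e-18) without that library, so this fall of 2.20-fold did not rest on it. Cpt1b (ENSMUSG00000078937.8, chr15:89416405-89425863, minus strand), the muscle form of the outer enzyme on which malonyl-CoA acts, stood at 11895, 12733, 10392 and 11626 in the wildtype and 10079, 10075, 20992 and 11224 in the knockout. Its log2 fold change was 0.17 ± 0.23 (SE, adjusted p = 0.62), and -0.16 ± 0.09 (SE, adjusted p = 0.177) without knockout replicate 3, which alone lay above the wildtype range.

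Cpt1a (ENSMUSG00000024900.4, chr19:3322334-3385733, plus strand), the form of the outer enzyme known from liver, rose from 1022 ± 133 to 1603 ± 731 normalised counts (SD, n = 4 each). It was counted at 1170.2, 1077, 860.4 and 979 in the wildtype and 923, 1395, 2640.3 and 1455 in the knockout, with knockout replicate 1 inside the wildtype range and knockout replicate 3 far above the rest. Its fold change on the log2 scale, 0.65 ± 0.26 (SE, adjusted p = 0.0429), passed with all libraries and became 0.30 ± 0.17 (SE, adjusted p = 0.151) without knockout replicate 3. It was likewise not called without knockout replicate 4 (0.70), without any of the 4 wildtype libraries (0.57 to 0.72), with total-count scaling (0.34, adjusted p = 0.301) or by edgeR (0.62, adjusted p = 0.0767). Slc22a5, the carnitine transporter of the cell membrane, fell with a log2 fold change of -0.61 ± 0.18 (SE, adjusted p = 0.00304) and at -0.65 without knockout replicate 3. Its close copy Slc22a21 held 4.77% of the reads of the pair in the wildtype and 15.1% in the knockout libraries, and was itself called higher with all libraries (0.99, adjusted p = 0.0077) but not without knockout replicate 3 (0.83, adjusted p = 0.0571). With the reads of both summed the log2 fold change was -0.43 (adjusted p = 0.0302). Crat, which moves acetyl groups on carnitine, fell with a log2 fold change of -0.49 ± 0.20 (SE, adjusted p = 0.0422) and at -0.75 ± 0.10 (SE, adjusted p = 3.41e-12) without knockout replicate 3, and was not called when any other library than that one or wildtype replicate 3 was left out (-0.51 to -0.39).

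**Figure D3:**
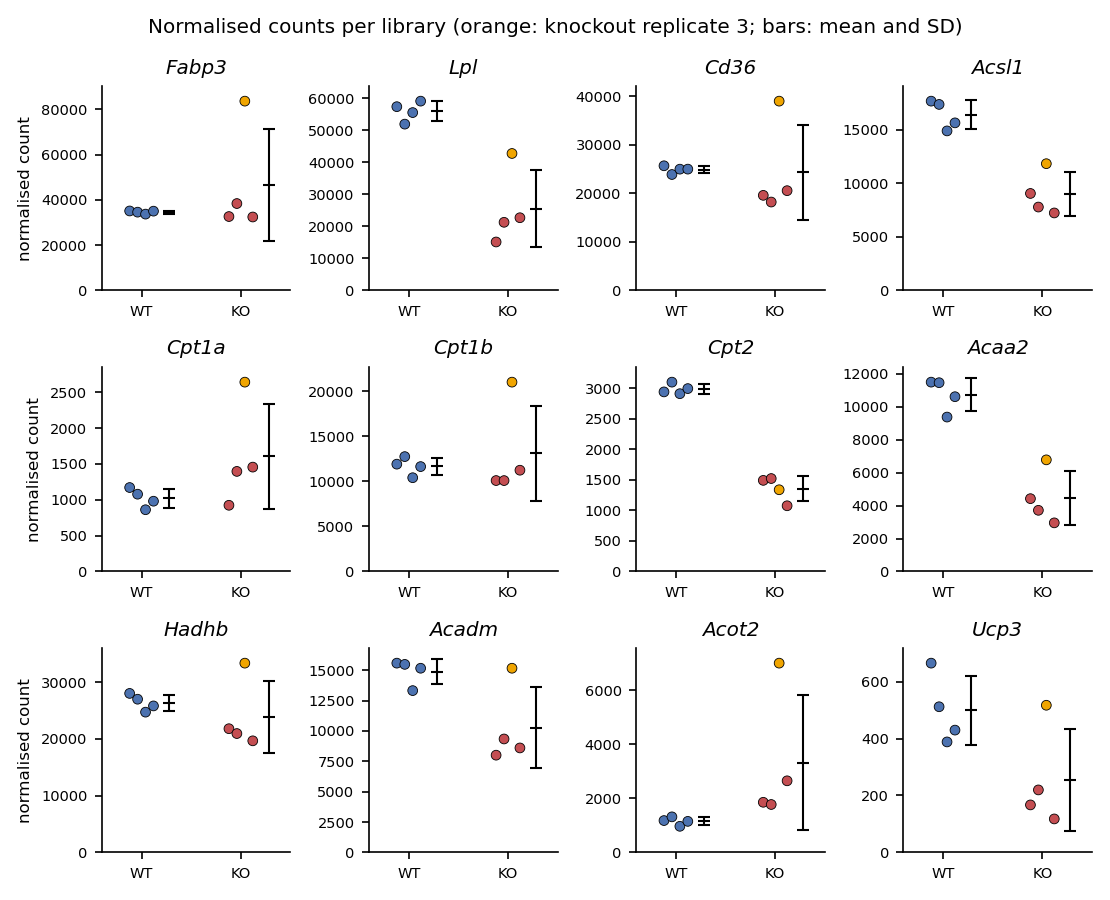
Points give the normalised count (vertical axes, from 0) of 12 of the genes in the 4 wildtype (blue) and 4 knockout libraries (red, with knockout replicate 3 in orange), and bars give the mean and SD of each group. Cpt2, Lpl, Acsl1 and Acaa2 are separated between groups, while in Cd36, Cpt1b and Hadhb the orange point lies above the wildtype points and the red points below or beside them.

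Of the genes that make and remove malonyl-CoA, 1 of 2 was lower with all libraries and 2 of 2 without knockout replicate 3. Acacb (ENSMUSG00000042010.16, chr5:114146535-114250761, plus strand), the acetyl-CoA carboxylase of the mitochondrial surface, stood at 6562, 7127, 5413 and 6257 in the wildtype and 3848, 3302, 4988 and 3572 in the knockout. The groups did not overlap, and the log2 fold change was -0.69 ± 0.15 (SE, adjusted p = 3.5e-05) and -0.83 without knockout replicate 3. Mlycd (ENSMUSG00000074064.6, chr8:119394878-119411102, plus strand), the decarboxylase that removes malonyl-CoA, stood at 1484, 1487, 1406 and 1502 in the wildtype and 947, 1006, 2430.1 and 970.5 in the knockout. Its 3 other knockout libraries lay close together below all wildtype libraries and knockout replicate 3 above all. This gave a log2 fold change of -0.14 ± 0.28 (SE, adjusted p = 0.757) with all libraries and -0.59 ± 0.08 (SE, adjusted p = 2.07e-12) without that library.

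Of the 4 dehydrogenases that open each turn, 2 were lower with all libraries and 3 without knockout replicate 3. Acadm, for medium chains, and Acads, for short chains, were lower, while Acadvl and Acadl, for very long and long chains, were not called with all libraries. Acadm (ENSMUSG00000062908.12, chr3:153922357-153944632, minus strand) stood at 15584, 15482, 13323 and 15165 in the wildtype and 8007, 9341, 15165 and 8602 in the knockout. Knockout replicate 3 lay inside the wildtype range and the others well below it. Its log2 fold change was -0.53 ± 0.19 (SE, adjusted p = 0.0201) and -0.78 ± 0.09 (SE, adjusted p = 6.7e-17) without knockout replicate 3. Leaving out any 1 of the other libraries except wildtype replicate 3 ended the call (-0.53 to -0.43). Acads fell with a log2 fold change of -0.71 ± 0.11 (SE, adjusted p = 3.75e-09) and -0.80 without knockout replicate 3.

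Acadvl (ENSMUSG00000018574.14, chr11:70010183-70015411, minus strand), whose start region is printed above, stood at 14761, 14832, 13229 and 13928 in the wildtype and 12468, 12098, 18349.6 and 11075 in the knockout. Its log2 fold change was -0.07 ± 0.16 (SE, adjusted p = 0.778), and -0.26 ± 0.08 (SE, adjusted p = 0.0051) without knockout replicate 3, the 1 knockout library above the wildtype range. Acadl (ENSMUSG00000026003.5, chr1:66830839-66863277, minus strand) stood at 7964, 8034, 7039 and 7233 in the wildtype and 7189, 9033, 14434 and 7856 in the knockout. The 3 lower knockout libraries overlapped the wildtype libraries, and the log2 fold change was 0.35 ± 0.20 (SE, adjusted p = 0.184) with and 0.08 ± 0.10 (SE, adjusted p = 0.562) without the highest one. Without knockout replicate 1, the lowest of the knockout group, Acadl was called higher (0.47, adjusted p = 0.0465).

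The later steps of the turn had 3 of 5 genes lower with all libraries and 5 of 5 without knockout replicate 3. The thiolase Acaa2 (ENSMUSG00000036880.9, chr18:74779197-74806208, plus strand), which cleaves off acetyl-CoA, had the largest fall of the 33 genes with all libraries. It was counted at 11504, 11470.3, 9382 and 10619 in the wildtype and 4422, 3715, 6781 and 2951 in the knockout. Every knockout library lay below every wildtype one. Acaa2 had a log2 fold change of -1.27 ± 0.22 (SE, adjusted p = 1.4e-07), a fall of 2.41-fold, and -1.54 ± 0.14 (SE, adjusted p = 8.37e-28) without knockout replicate 3. Hadh, the dehydrogenase of the second oxidation, fell with a log2 fold change of -0.89 ± 0.16 (SE, adjusted p = 2.07e-07) and at -1.06 without that library, and Echs1, the short-chain hydratase with the half-site shown above, at -0.47 ± 0.15 (SE, adjusted p = 0.00689) and at -0.63.

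Hadha and Hadhb encode the subunits of the trifunctional protein, which carries out these steps on long chains, and lie head to head on chromosome 5. Hadha (ENSMUSG00000025745.11, chr5:30118304-30155162, minus strand) stood at 22688, 23383, 18161 and 20495 in the wildtype and 17578, 17883, 30762 and 16321 in the knockout. Hadhb (ENSMUSG00000059447.13, chr5:30155248-30184593, plus strand) stood at 28009, 26988, 24707 and 25806 in the wildtype and 21790.4, 20939, 33339.7 and 19657 in the knockout. In both genes knockout replicates 1, 2 and 4 lay below every wildtype library and knockout replicate 3 above every one. The log2 fold changes were -0.04 ± 0.20 (SE, adjusted p = 0.913) for Hadha and -0.14 ± 0.17 (SE, adjusted p = 0.567) for Hadhb with all libraries, and -0.30 ± 0.10 (SE, adjusted p = 0.0122) and -0.34 ± 0.08 (SE, adjusted p = 5.65e-05) without knockout replicate 3.

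Of the 3 enzymes that prepare unsaturated chains, 1 was lower with all libraries and 2 without knockout replicate 3. Eci1 stood at 2858, 2837, 2524 and 2717 in the wildtype and 1488, 1371, 2180.3 and 1189 in the knockout. The groups did not overlap, and Eci1 was lower, with a log2 fold change of -0.81 ± 0.18 (SE, adjusted p = 4e-05) and -1.02 without knockout replicate 3. Decr1, the dienoyl-CoA reductase, had a log2 fold change of -0.44 ± 0.20 (SE, adjusted p = 0.0838) and -0.71 ± 0.09 (SE, adjusted p = 5.61e-13) without that library. Eci2 had log2 fold changes of 0.22 ± 0.24 (SE, adjusted p = 0.532) and -0.14 ± 0.10 (SE, adjusted p = 0.292). The peroxisomal thiolase Acaa1a (ENSMUSG00000036138.16, chr9:119339676-119350299, plus strand) was counted at 950.1, 887, 934 and 818 in the wildtype and 897, 834, 898 and 895 in the knockout. Its groups overlapped, and its log2 fold changes were -0.03 ± 0.09 (SE, adjusted p = 0.87) and -0.04 ± 0.10 (SE, adjusted p = 0.823), with an interval from -0.21 to 0.16 in the first.

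Electron transfer was lower in 3 of 3 genes with and without knockout replicate 3, and in 1 of 3, Etfb, with the total outside mitochondrial rRNA, where the log2 fold changes of Etfa and Etfdh were -0.13 and -0.08. Etfa and Etfb encode the subunits of the flavoprotein that takes electrons from the acyl-CoA dehydrogenases, and Etfdh the enzyme that passes them to ubiquinone. Etfb (ENSMUSG00000004610.4, chr7:43444083-43457800, plus strand) stood at 5395, 5091, 4777 and 4917 in the wildtype and 2737, 2519, 3787 and 2602 in the knockout. Etfa (ENSMUSG00000032314.14, chr9:55454508-55512243, minus strand) stood at 3804, 3640.3, 3547 and 3665 in the wildtype and 2157, 2290.4, 3401 and 2189 in the knockout. In both the groups did not overlap, and knockout replicate 3 came nearest to the wildtype libraries. The log2 fold changes were -0.79 ± 0.14 (SE, adjusted p = 3.57e-07) and -0.55 ± 0.16 (SE, adjusted p = 0.00226) with all libraries, and -0.95 and -0.73 without that one. Etfdh fell with a log2 fold change of -0.48 ± 0.20 (SE, adjusted p = 0.0494), close to the threshold, and at -0.76 ± 0.08 (SE, adjusted p = 5.03e-19) without knockout replicate 3, which lay above all wildtype libraries. It was not called by edgeR (adjusted p = 0.0505) or when any 1 of the other 7 libraries was left out (-0.53 to -0.39).

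**Figure D4:**
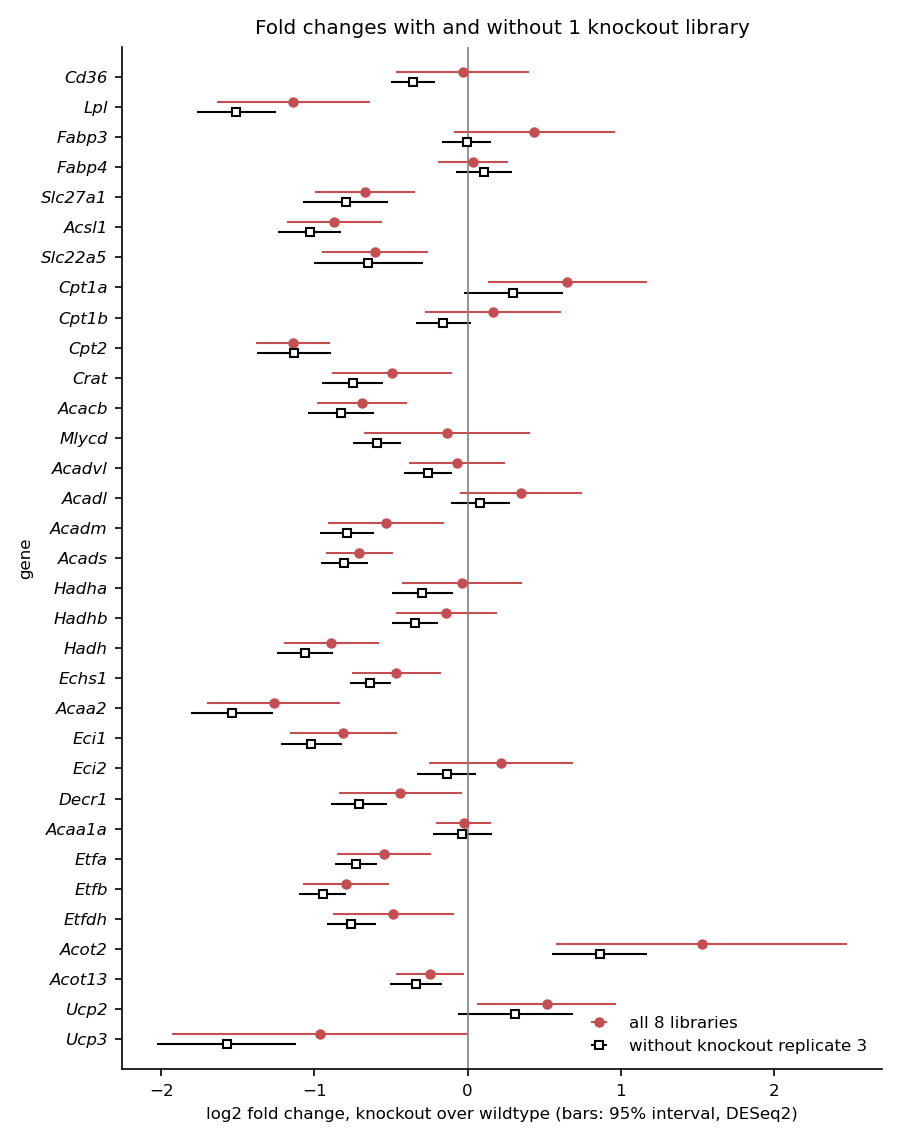
The log2 fold change, knockout over wildtype (horizontal axis), is plotted for the 33 genes with its 95% interval by DESeq2, with all 8 libraries (red) and without knockout replicate 3 (black, open). Most open squares lie left of the red points with narrower bars, and Acot2 is at 1.53 and 0.86.

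Of the 4 thioesterases and uncoupling proteins 1 was higher and 0 lower with all libraries, and 1 was higher and 2 lower without knockout replicate 3. Acot2 (ENSMUSG00000021226.7, chr12:83987861-83993873, plus strand), the mitochondrial thioesterase that releases free fatty acid from acyl-CoA, stood at 1178, 1315, 966 and 1149 in the wildtype and 1854, 1772, 6999.9 and 2648 in the knockout. Every knockout library lay above every wildtype library, with knockout replicate 3 far above the rest. This came to a log2 fold change of 1.53 ± 0.49 (SE, adjusted p = 0.00703), a rise of 2.88-fold, and 0.86 ± 0.16 (SE, adjusted p = 3.94e-07) without that library. Its near-identical neighbour Acot1 on chromosome 12, a cytosolic thioesterase that received no adjusted p, held 15.5% of the reads of the pair in the wildtype and 3.38% in the knockout libraries, and with the reads of both summed the log2 fold change was 1.33. Acot1 itself was counted at 305, 223, 178 and 159.9 in the wildtype and 36.9, 40.4, 358 and 40.4 in the knockout. There the other 3 knockout libraries lay below all wildtype libraries and knockout replicate 3 above all, and without that library its log2 fold change was -2.46 ± 0.27 (SE, adjusted p = 4.26e-18). Acot13, another thioesterase and per length the most abundant gene of this group, stood at 2033, 1905, 2126 and 2159 in the wildtype and 1609, 1734, 2034 and 1553 in the knockout. Knockout replicate 3 lay inside the wildtype range and the other knockout libraries below it, and Acot13 had log2 fold changes of -0.25 ± 0.11 (SE, adjusted p = 0.0759) and -0.33 ± 0.09 (SE, adjusted p = 0.000596), and edgeR called it lower with all libraries (adjusted p = 0.0465).

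Ucp2 and Ucp3 encode inner membrane carriers of the uncoupling family and lie next to each other on chromosome 7. Ucp3 (ENSMUSG00000032942.14, chr7:100472990-100486432, plus strand), the form of muscle, stood at 665, 512, 388 and 429.7 in the wildtype and 167, 219.5, 517 and 118 in the knockout. Knockout replicate 3 lay inside the wildtype range and the others below it. Ucp3 had a log2 fold change of -0.97 ± 0.49 (SE, adjusted p = 0.118) with all libraries and -1.57 ± 0.23 (SE, adjusted p = 1.69e-10) without it, and it also passed with a minimum of 10 counts in 4 libraries and without wildtype replicate 3 (-1.07) or 4 (-1.03). Ucp2 (ENSMUSG00000033685.13, chr7:100493337-100502020, plus strand), found in many cell types, macrophages among them, stood at 617, 579, 499.7 and 656 in the wildtype and 484, 860.0, 1172 and 846 in the knockout. Its log2 fold changes were 0.52 ± 0.23 (SE, adjusted p = 0.0697) and 0.31 ± 0.19 (SE, adjusted p = 0.206). It was called without knockout replicate 1, the lowest of all 8 libraries (0.71), and without the length offset (0.69).

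Ratios of a pair of these genes within a library do not depend on the scaling between libraries. For 10 pairs the log2 ratio of counts per effective length was compared by an exact two-sided permutation test over the 70 assignments of the libraries, in which 0.0286 is the smallest p. In 6 pairs the groups did not overlap, and each reached p = 0.0286 (exact permutation test, 0.0476 after Benjamini-Hochberg adjustment over the 10). The pairs were chosen with earlier results of these data known, and some share a gene. These p values therefore describe the separation and are no independent test of it. Acadl over Acadm was -1.23, -1.21, -1.19 and -1.33 in the wildtype and -0.42, -0.31, -0.34 and -0.40 in the knockout libraries, a difference of 0.87 or 1.83-fold. Knockout replicate 3 lay among the other knockout libraries here, although its counts of both genes were the highest of the knockout group. Acadvl over Acadm was higher by 0.48 and Etfa over Etfb by 0.24, the latter with an exact permutation p of 0.0571 when any 1 wildtype library was left out.

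Cd36 over Lpl was -0.44, -0.41, -0.44 and -0.53 in the wildtype and 1.09, 0.49, 0.58 and 0.57 in the knockout libraries, a difference of 1.14. Cpt2 over Cpt1b was -1.71, -1.74, -1.53 and -1.66 in the wildtype and -2.45, -2.42, -3.67 and -3.08 in the knockout libraries, a difference of -1.25. Thus the receptor stood higher against the lipase, and the inner transferase lower against the outer one, in every knockout library, knockout replicate 3 included. Ucp2 over Ucp3 was higher by 1.62, with an exact permutation p of 0.0571 without wildtype replicate 1 or 2. The ratios that did not pass were Cpt1a over Cpt1b (0.46, exact p = 0.0571), Acacb over Mlycd (-0.44, exact p = 0.0571), Hadha over Hadhb (0.09, exact p = 0.229) and Fabp3 over Fabp4 (0.28, exact p = 0.857, and -0.12 without knockout replicate 3). Of these, Cpt1a over Cpt1b (0.59) and Acacb over Mlycd (-0.56) reached an exact permutation p of 0.0286 without knockout replicate 1. Without knockout replicate 3 the 6 differences lay at 0.86, 0.53, 0.22, 1.17, -0.99 and 1.85 in the order given, and all 6 still had groups without overlap.

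**Figure D5:**
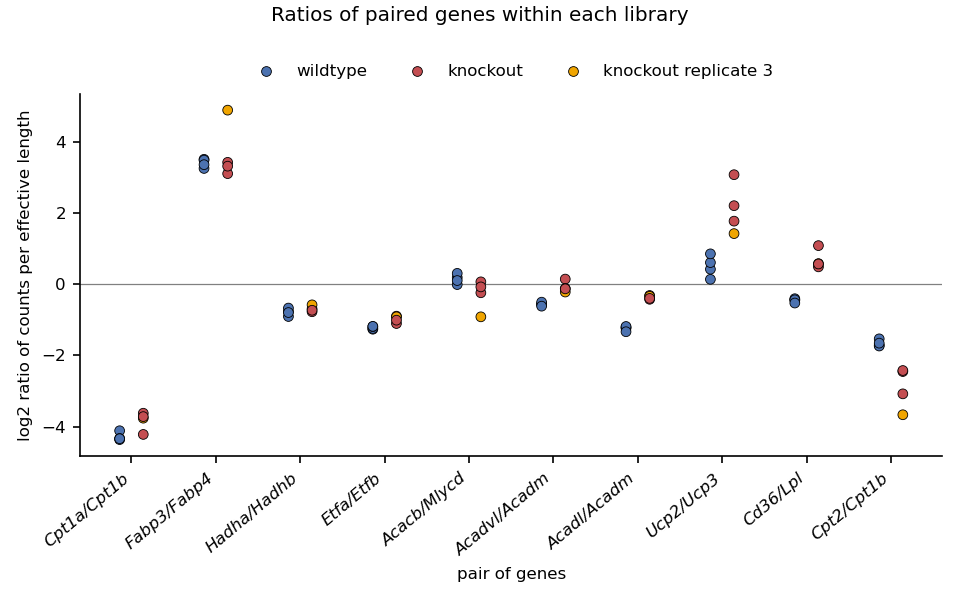
The log2 ratio of counts per effective length (vertical axis) is plotted for 10 pairs of genes (horizontal axis) in each wildtype (blue) and knockout library (red, with knockout replicate 3 in orange). The groups are apart in Etfa/Etfb, Acadvl/Acadm, Acadl/Acadm, Ucp2/Ucp3, Cd36/Lpl and Cpt2/Cpt1b, and the orange point lies far from the others in Fabp3/Fabp4.

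Per length, in deposited TPM (transcripts of each gene per fixed total of transcripts), Fabp3 was the most abundant of the 33 in both groups, at 1452 ± 35.5 in the wildtype and 1755 ± 812 in the knockout (SD, n = 4 each). Lpl was the second in the wildtype at 484 ± 23.2 and the fifth in the knockout at 199 ± 82.7. In the knockout it did not differ beyond its spread from Hadha (199 ± 53) and Acadm (184 ± 49), its neighbours in rank. Hadhb, Cd36, Acadm and Hadha followed in the wildtype at 390.2 ± 25.9, 354 ± 13.1, 296 ± 22.3 and 228 ± 27.4, where Hadha and Acaa2 (219.9 ± 22.1) did not differ beyond their spread. Slc22a5 was the least abundant in the wildtype at 4.45 ± 0.749. In the knockout Slc22a5 (2.64 ± 0.327) and Ucp3 (2.85 ± 1.82) did not differ beyond their spread, and their order turned without knockout replicate 3 (2.63 ± 0.4 and 1.97 ± 0.582, SD, n = 3). Acaa2 moved from the seventh place to the 12th, and Acot2 from 15.7 ± 2.02 to 40.1 ± 27.4. Without that library Fabp3 stood at 1354 ± 159, Lpl at 161 ± 41.2 in the sixth place, level with Acadm (161 ± 19), Acaa2 in the 13th and Acot2 at 26.8 ± 7.61.

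Together the 33 genes held 0.531 ± 0.0233% of the TPM of the wildtype and 0.445 ± 0.145% of that of the knockout libraries (SD, n = 4 each). Without knockout replicate 3 the knockout share was 0.373 ± 0.0281% (SD, n = 3). With TPM rescaled to genes outside the mitochondrial genome the shares were 0.932 ± 0.0485% and 1.05 ± 0.352%, and here knockout replicate 3 held 1.58% against 0.814% to 0.917% in the other knockout libraries and 0.875% to 0.993% in the wildtype. The higher knockout mean on this scale rested on that library, since without it the mean was 0.878 ± 0.0561% (SD, n = 3), below that of the wildtype. Fabp3 made up 27.4 ± 0.55% of the TPM of the 33 genes in the wildtype and 38.4 ± 4.55% in the knockout, where the libraries lay at 35.2%, 38.4%, 44.8% and 35.2%, all above the highest wildtype library at 28%, and the knockout mean was 36.3 ± 1.84% (SD, n = 3) without knockout replicate 3.

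The other genes of fatty acid metabolism were listed with them, 68 in all, of which 66 were tested, 22 were lower and 11 higher, which is 33.3% and 16.7% against the 15.5% and 18.2% of all genes tested, and without knockout replicate 3 those shares of all genes tested were 17.2% and 19.4%. The list named other mitochondrial oxidation also holds genes of enzymes found outside the mitochondrion, Echdc1, Nudt7 and Nudt19 among them. Of its 15 tested genes, 7 were lower and 1 higher with all libraries. Without knockout replicate 3 the counts were 9 and 1 of the same 15. Acad12, an acyl-CoA dehydrogenase, fell with a log2 fold change of -1.44 ± 0.12 (SE, adjusted p = 1.33e-29) and Echdc3, of the hydratase family, at -1.27 ± 0.14 (SE, adjusted p = 5.84e-18), while the thioesterase Acot9 rose with a log2 fold change of 1.26 ± 0.14 (SE, adjusted p = 4.58e-19). Without knockout replicate 3 these stood at -1.37, -1.26 and 1.17. In Acad12 knockout replicate 3 was the lowest of the knockout libraries, at 463 against 525 to 643, and that library was the highest of its group in 5 of these 15 genes.

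Of 18 tested peroxisomal genes 6 were lower and 3 higher (8 and 2 without knockout replicate 3). Acox2, the oxidase of branched chains and bile acid precursors, rose from a range of 3.45 to 19.6 normalised counts to one of 258 to 478, a log2 fold change of 5.55 ± 0.38 (SE, adjusted p = 5.51e-46) from a low level and 5.46 without knockout replicate 3. Amacr, which turns the configuration of branched chains, fell with a log2 fold change of -0.72 ± 0.14 (SE, adjusted p = 4.71e-06), and -0.66 without that library, and Acot3 fell from 13 to 26 normalised counts in the wildtype to 0 to 3.59 in the knockout, too few for a firm fold. Of 14 genes of other uptake and activation 3 were lower and 4 higher (6 and 5 without knockout replicate 3). Gpihbp1, which holds lipoprotein lipase on the capillary wall, rose with a log2 fold change of 0.86 ± 0.18 (SE, adjusted p = 1.1e-05), opposite to Lpl, Acsf2 rose with a log2 fold change of 0.56 ± 0.17 (SE, adjusted p = 0.00394) and Acsl3 fell with a log2 fold change of -0.65 ± 0.23 (SE, adjusted p = 0.0175). All 3 were called again without knockout replicate 3, at 0.67, 0.42 and -0.73.

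Of 10 genes of synthesis 2 were higher and 0 lower (3 and 0 without knockout replicate 3). Acaca, the cytosolic acetyl-CoA carboxylase, was counted at 423, 671, 753 and 604 in the wildtype and 2950.3, 2145, 1853 and 2334 in the knockout. Every knockout library lay above every wildtype one with a log2 fold change of 1.92 ± 0.20 (SE, adjusted p = 1.62e-20), whereas its mitochondrial counterpart Acacb fell. Elovl1, an elongase of very long chains, rose with a log2 fold change of 1.43 ± 0.15 (SE, adjusted p = 8.76e-21). Without knockout replicate 3 Acaca stood at 2.02, and Elovl1 was again called higher.

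Of 9 genes of transcriptional control 6 were lower and 1, Pparg, higher (7 and 1 without knockout replicate 3). Ppara, the receptor best known for fatty acid oxidation in heart, was counted at 872, 932, 976 and 757 in the wildtype and 451, 482, 544 and 353 in the knockout. The coactivator Ppargc1a stood at 2611, 2371, 2533 and 2252 in the wildtype and 1351, 1951, 1965 and 1031 in the knockout. In both genes the groups did not overlap, and the log2 fold changes were -0.95 ± 0.16 (SE, adjusted p = 1.31e-08) and -0.63 ± 0.20 (SE, adjusted p = 0.00573). Ppargc1b, its relative, fell with a log2 fold change of -1.0 ± 0.19 (SE, adjusted p = 2.11e-06). The values of Ppara, Ppargc1a and Ppargc1b without knockout replicate 3 were -1.05, -0.76 and -1.06. Knockout replicate 3 was the highest knockout library in 4 of the 9, Ppara and Ppargc1a among them, and it stayed below every wildtype library in these 2.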

How the data were processed

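The authors sequenced total heart RNA in pairs, by strand, after removing cytoplasmic rRNA and priming at random. The deposited expected counts, TPM and effective lengths (other values, in bases) were made by the authors with RSEM 1.2.31 and bowtie2 on GENCODE transcripts with added mitochondrial sequences. RSEM divides reads that match several genes. The authors' own table of fold changes and p values, and a table of normalised counts whose 8 columns match no sample label, were not used.

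Samples were grouped by their titles, 4 wildtype and 4 knockout. Expected counts were rounded and fitted with DESeq2 1.42.0 in R 4.3.3 with all 8 libraries, genotype alone in the model and effective lengths as an offset (lengths of 0 were set to 1). P values were adjusted by Benjamini-Hochberg over the genes left by the default filter of DESeq2 on the mean count, 19959 with all libraries. The threshold was 0.05. Normalised counts are corrected for size factor and length. GENCODE M21 gave symbols and GRCm38 positions for 50339 of 50563 Ensembl identifiers. Copies were sought by blastn (95% identity or more over 200 bases or more). Ratios used a pseudocount of 1.

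The members, the lists, the pairs of genes and the alternatives were chosen with earlier results of these data known. Values in every library are given for members called at a log2 fold change of at least 1 in size, for the member with the highest TPM in a step and for members of the ratios, and from each other list the 3 largest called changes are named. Acot1 and Slc22a21 were added as copies after the values were seen.

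Alternatives were edgeR 4.0.16, no length offset, a minimum of 10 counts in 4 libraries, nuclear size factors, scaling to the total count or to that outside mitochondrial rRNA, copies summed, a replicate block and leaving out each library. The tests were tested on simulated data with 200 changed genes for the comparison of knockout with wildtype. DESeq2 recovered 59% of the changes of 0.5 and 89% of those of 1 on the log2 scale among 22005 genes, with 6.33% of 158 calls on unchanged genes. The simulated means and dispersions came from the wildtype libraries alone. Pairs of knockout libraries differed more, at a chi-square per degree of freedom of 13.5 to 48.4 against 4.40 to 9.31 in the wildtype. These simulated shares thus do not carry over to the real comparison. No replicates agreed within sampling noise (chi-square per degree of freedom 4.40 to 48.4), and p values measure the spread between hearts, 1 of each animal.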

Additional observations from a re-analysis of the deposited data

Results flagged for a closer look

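In a group of 4, the highest or lowest library was set apart when its gap to the nearest other as a share of the group's range exceeded Dixon's 95% value, which chance meets in about 1 of 20 groups. The 68 groups are genes measured in the same hearts and so are not independent. Of these groups, 14 met that value, where chance gives about 3.4. In 12 of them the library was knockout replicate 3, always the highest. Among the genes of uptake, the shuttle and malonyl-CoA control its normalised counts were 39021 for Cd36 (18221 to 20564 in the other knockout libraries), 83582 for Fabp3 (32424 to 38365), 20992 for Cpt1b (10075 to 11224) and 2430.1 for Mlycd (947 to 1006). Among enzymes of the mitochondrial turn it held 30762 for Hadha (16321 to 17883), 33339.7 for Hadhb (19657 to 21790.4), 4274 for Echs1 (2783 to 2926), 3409 for Eci2 (1465 to 1744) and 6247 for Decr1 (3169.8 to 3568). It held 3401 for Etfa (2157 to 2290.4), 10045 for Etfdh (5321 to 5684) and 6999.9 for Acot2 (1772 to 2648).

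The other flags were in knockout replicate 2, at 834 for Acaa1a with the other knockout libraries at 895 to 898, and at 504 for Lrpprc with the others at 597 to 605. The targeted gene stayed below the wildtype range (3424 to 3946) in each library.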

How the results depend on the processing

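Of the 18 called members none changed sign under any alternative run. With all libraries 16 were lower and 2 higher with a median log2 fold change of -0.47. The number higher was 1 by edgeR, 1 with total-count scaling and 1 with the replicate block, and total-count scaling moved the median to -0.77. Total-count scaling without mitochondrial rRNA gave 10 higher, 8 lower and a median of -0.052, and moved the median of all genes by 0.43. Leaving out each library in turn gave 13 to 24 lower, 1 to 4 higher and medians from -0.65 to -0.39. Of the calls, Cpt1a, Crat, Acadm and Etfdh were lost most often.

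Among genes not called, total-count scaling without mitochondrial rRNA turned Cd36 (0.37), Mlycd (0.26), Acadvl (0.34), Hadha (0.37), Hadhb (0.27), Acaa1a (0.40) and Acot13 (0.17) positive, and total-count scaling turned Fabp4 (-0.26), Cpt1b (-0.15) and Eci2 (-0.10) negative. Leaving out 1 library turned the sign of Cd36 (-0.36 to 0.087), Fabp3 (-0.0062 to 0.58), Fabp4 (-0.028 to 0.11), Cpt1b (-0.16 to 0.28), Mlycd (-0.59 to 0.0018), Acadvl (-0.26 to 0.013), Hadha (-0.30 to 0.061), Eci2 (-0.14 to 0.35) and Acaa1a (-0.068 to 0.0025). The cause was not tested.

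Replicate numbers did not pair the libraries, since the deviations of same-numbered libraries correlated at -0.0632 to -0.00878 over 10441 genes. With a replicate block the fit gave 17 lower and 1 higher, with Cpt1a no longer called (0.55, adjusted p = 0.0979) and Decr1 called lower (-0.49, adjusted p = 0.0404). For the ratios an exact sign-flip test over the 4 numbered pairs cannot go below p = 0.125, and the paired differences of Etfa/Etfb (0.24), Acadvl/Acadm (0.48), Acadl/Acadm (0.87), Ucp2/Ucp3 (1.62), Cd36/Lpl (1.14) and Cpt2/Cpt1b (-1.25) thus could not pass. Leaving out 1 library, the differences spanned 0.39 to 0.59 for Cpt1a/Cpt1b, -0.12 to 0.48 for Fabp3/Fabp4, 0.21 to 0.28 for Etfa/Etfb, -0.56 to -0.23 for Acacb/Mlycd and 1.30 to 1.85 for Ucp2/Ucp3. Without 1 wildtype library those of Etfa/Etfb (any) and Ucp2/Ucp3 (replicate 1 or 2) reached an exact permutation p of 0.0571. Acacb/Mlycd from counts alone was -0.53. The share of TPM held by the members, as a log2 ratio of group means, was -0.26 and became 0.18 with genes outside the mitochondrial genome. Leaving out 1 library (added after seeing the data), the first spanned -0.51 (without knockout replicate 3) to -0.15, and the second 0.15 to 0.28 except without knockout replicate 3 (-0.086).

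The median standard error of the members was 0.193 with all libraries and 0.0974 without knockout replicate 3.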

Other observations

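Other genes known as targets of PPAR receptors were looked at after the values of knockout replicate 3 were seen. Pdk4, the kinase that holds back glucose oxidation, was counted at 5000.5, 3634, 4248 and 4621 in the wildtype and 5151, 5268, 17191 and 6039 in the knockout. Angptl4, an inhibitor of lipoprotein lipase, stood at 115, 129, 155 and 90.5 in the wildtype and 96.5, 172, 384 and 136 in the knockout. Knockout replicate 3 was the highest of all 8 libraries in both genes. The log2 fold changes with all libraries were 0.94 ± 0.45 (SE, adjusted p = 0.0914) for Pdk4 and 0.68 ± 0.37 (SE, adjusted p = 0.15) for Angptl4 by DESeq2. Without knockout replicate 3 they were 0.33 ± 0.12 (SE, adjusted p = 0.0207), which was called, and 0.14 ± 0.25 (SE, adjusted p = 0.727), which was not.

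The same library held the highest knockout values of 5 of 5 erythroid markers (summed normalised counts of 53861 against 15231 to 45829 in the other knockout and 20882 to 27049 in the wildtype libraries), of 12 of 18 peroxisomal genes tested, 8 of 14 of other uptake and activation, 4 of 7 cardiomyocyte markers and 2 of 10 genes of synthesis, against 33.8% of all genes tested and 52.4% of those averaging 500 or more. It held the lowest knockout values of 6 of 6 endothelial, 5 of 5 tested adipocyte and 4 of 5 atrial markers, and of 3 of 5 macrophage and 3 of 5 fibroblast markers, against 29.2% of all genes tested and 20.9% of those averaging 500 or more. The part of these differences in the fatty acid genes was not tested. The labels give no batch or time of sampling for any library.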
